A study of Homo sapiens with 4 samples.

Results

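Open chromatin was described at 10 genes that mark T cells and natural killer (NK) cells: CD2, CD3D, CD3E, CD3G, CD247, TRAT1, TYROBP, CD7, NKG7 and GNLY. The assay was ATAC-seq, which sequences the fragments that Tn5 transposase cuts from accessible DNA, and the cells were of the AMO1 line. AMO1 is a human multiple myeloma line, so its cells are malignant plasma cells and not T or NK cells. The members were taken as every peak that overlapped a gene body or the 20 kb on either side of it on hg38, in any of the 4 peak lists. Overlapping peaks of different libraries were joined into a region, which gave 36 regions among the 73729 of all lists.

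The study transfected AMO1 cells with a PCDH vector that carried PHF19 or with the same vector left empty. The 4 libraries were PHF19 overexpression, empty vector, PHF19 overexpression with the title prefix IFN, and empty vector with that prefix. The labels do not explain the prefix, so those libraries are called IFN-prefixed here and no treatment is assumed. The labels give WT as the genotype of both empty vector libraries and name no clone, passage or time. Each group holds 1 library, so no value below has a replicate check, an SD or a p-value. PHF19 is a Polycomb-like protein that binds the Polycomb repressive complex PRC2 and guides it to its targets. In a mixed or bulk preparation, fewer cells with an open site and a site that is open less often in each cell cannot be told apart.

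The antigen-binding chains of the T cell receptor carry no signalling motifs of their own. They are joined by CD3D, CD3E and CD3G and by the zeta chain, encoded by CD247, whose cytoplasmic motifs are phosphorylated when the receptor meets its antigen. TRAT1 is a transmembrane adaptor that associates with this complex, and CD2 is an adhesion and costimulatory receptor that binds CD58. CD7 is an early surface marker of T and NK cells. TYROBP, also called DAP12, is the signalling adaptor of activating NK receptors and is used by myeloid cells too. NKG7 is a protein of cytotoxic granules and GNLY encodes granulysin, a granule protein that damages the membranes of microbes. In T and NK cells the genes of this kind are controlled in part by transcription factors of the ETS, RUNX and GATA families.

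The sequences just before the gene start were available from RefSeq (GRCh38.p14, the patch release of hg38) for 7 of the 10 members. Those that hold a RUNX match are shown with that of CD247, which has the most ETS matches. Each line gives the 250 bases before the start, read 5′ to 3′ on the gene's own strand. Capitals mark matches, on either strand, to CAGGAA (a core that ETS factors bind) or TGTGGT (a core that RUNX factors bind). The coordinates are chr3:108822536-108822785 on the plus strand for TRAT1, chr11:118342706-118342955 on the minus strand for CD3D, chr2:85694108-85694357 on the plus strand for GNLY, and chr1:167518530-167518779 on the minus strand for CD247.
TRAT1: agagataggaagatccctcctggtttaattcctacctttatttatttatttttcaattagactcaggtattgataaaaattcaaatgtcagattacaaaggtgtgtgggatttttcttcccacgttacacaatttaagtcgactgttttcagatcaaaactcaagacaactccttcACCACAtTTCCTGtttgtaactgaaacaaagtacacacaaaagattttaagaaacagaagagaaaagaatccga
CD3D: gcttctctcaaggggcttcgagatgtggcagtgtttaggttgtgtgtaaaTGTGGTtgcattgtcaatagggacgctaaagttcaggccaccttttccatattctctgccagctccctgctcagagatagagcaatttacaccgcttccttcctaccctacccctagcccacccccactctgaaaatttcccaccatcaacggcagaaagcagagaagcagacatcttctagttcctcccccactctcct
GNLY: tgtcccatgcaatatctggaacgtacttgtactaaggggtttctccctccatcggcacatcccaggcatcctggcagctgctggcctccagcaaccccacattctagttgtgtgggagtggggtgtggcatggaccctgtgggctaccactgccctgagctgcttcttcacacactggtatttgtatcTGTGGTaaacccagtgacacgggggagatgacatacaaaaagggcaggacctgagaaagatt
CD247: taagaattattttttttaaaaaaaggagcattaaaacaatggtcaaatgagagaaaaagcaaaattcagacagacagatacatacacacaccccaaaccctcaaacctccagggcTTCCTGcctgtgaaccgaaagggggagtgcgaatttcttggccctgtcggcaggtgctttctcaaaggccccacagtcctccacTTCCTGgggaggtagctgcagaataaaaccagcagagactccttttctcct
TRAT1 was the only member of the 7 with a peak over these bases in any library. In the IFN-prefixed empty vector library a peak of 341 bp covered 134 of its 250 bases, from 250 to 117 bases before the start. Its RUNX match begins 74 bases before the start and its ETS match begins 67 bases before it, a single base apart, so both lie outside that peak. The RUNX match begins 200 bases before the start in CD3D and 62 bases before it in GNLY. The ETS matches of CD247 begin 135 and 51 bases before its start. NKG7 held 1 ETS match, and CD2 and TYROBP held neither motif. None of the 7 held AGATAA, a core that GATA factors bind. Of 15812 protein-coding promoters of the same length, 22.4% held the ETS core, 8.90% the RUNX core and 6.84% the GATA core on either strand. A match is a string of letters and not a bound site. Only these exact strings were searched, so a promoter without a match can still hold another form of the site.

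The libraries differed in depth. The file headers give 18.2 M (mega) fragments for PHF19 overexpression, 27.4 M for empty vector, 16.4 M for IFN-prefixed PHF19 overexpression and 65.9 M for IFN-prefixed empty vector. The lists held 44090, 49155, 45825 and 69830 peaks in the same order, and the lowest called peak had 8, 10, 8 and 16 fragments. The IFN-prefixed empty vector library stands apart, with the deepest sequencing and a header that names another project folder than the other 3. The height of a peak is the number of fragments over its tallest point per M fragments of its library, written per M, and does not depend on gene length. Inside PHF19 a region of 335 bp had 7.90 per M with PHF19 overexpression and 7.33 per M with IFN-prefixed PHF19 overexpression, with no peak in either empty vector library. The other 4 regions inside PHF19 had a peak in every library, and their heights did not share that pattern, for example 10.5 per M with PHF19 overexpression and 12.4 per M with empty vector, and 4.94 per M with PHF19 overexpression and 6.43 per M with empty vector. In that order of libraries, 10, 10, 10 and 11 of 12 plasma cell genes had a peak within 1 kb of a gene end, led by SDC1, the plasma cell surface marker CD138, at 294.8, 246.4, 314.5 and 158.0 per M and by POU2AF1, a B lineage coactivator, at 47.6, 53.2, 55.9 and 47.4 per M. TNFRSF13B had one with IFN-prefixed empty vector alone, but its region was overlapped by peaks of the empty vector and IFN-prefixed PHF19 overexpression libraries. Of 8 B cell genes 3, 4, 3 and 4 had one, led by CD79B and BLK at up to 6.97 and 4.39 per M. CD22 had one with empty vector (0.512 per M) and IFN-prefixed empty vector (0.349 per M) alone. Both CD22 heights come from the deeper library of a pair and lie below its median peak, 1.75 and 1.06 per M. Of 9 myeloid genes, ITGAM and S100A8 had a gene-end peak in each library, at up to 2.87 and 1.95 per M.

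Outside the deepest library, few ends of the T and NK cell marker genes carried a peak. A peak lay within 1 kb of either gene end for 2 of the 10 members with PHF19 overexpression, 2 with empty vector, 1 with IFN-prefixed PHF19 overexpression and 6 with IFN-prefixed empty vector. Over all 19970 protein-coding genes the shares were 61.1%, 61.8%, 61.2% and 65% in the same order. CD3E alone had such a peak in all 4 libraries. CD3G, CD7, NKG7 and GNLY had none in any library. For the 7 members of known strand, a peak within 1 kb of the start was called for 0, 0, 0 and 1 gene, against 61.6%, 62%, 61.5% and 64.1% of 13257 genes. The 1 gene was TRAT1.

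**Figure D1:**
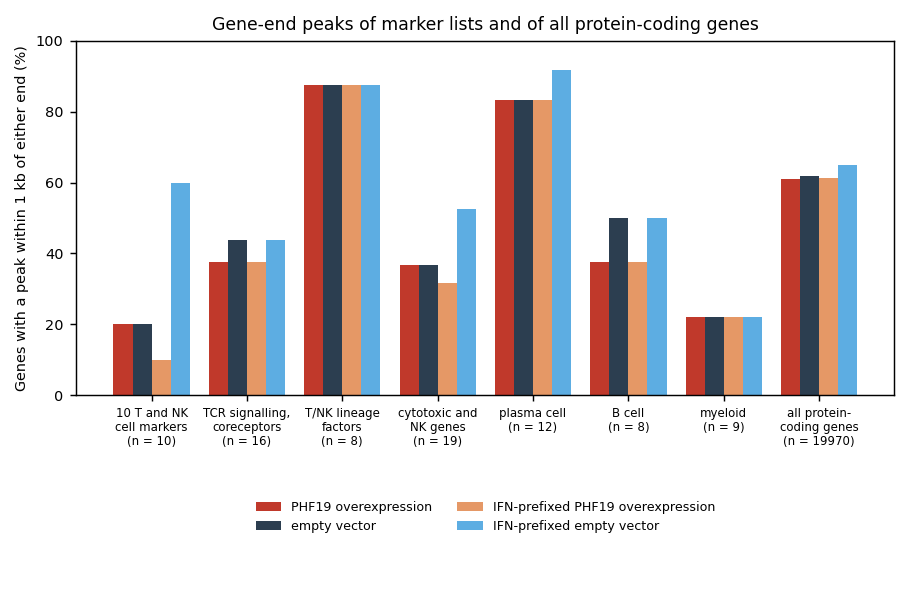
Percent of genes with a peak within 1 kb of either gene end (vertical axis, from 0) for the 10 marker genes, for 6 other lists and for all protein-coding genes. Each bar is 1 library, with no replicates, and the marker genes stand at 2, 2, 1 and 6 of 10 genes in the order of the bars.

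The surroundings of the genes were not empty. Of the 10 windows, 10, 9, 9 and 10 held a peak in the 4 libraries in the order above, against 86.6%, 87.2%, 86.8% and 90.8% of all gene windows. The median window held 2, 2.5, 2 and 3 peaks, against 2, 3, 2 and 3 over all genes. Of the 36 regions, 7 reached within 1 kb of a member's end, 10 lay inside a member, 4 lay at the end of another protein-coding gene, 3 lay inside one and 12 lay in flanks outside protein-coding genes. Peaks were present in all 4 libraries at 20 of the 36, or 55.6%, against 48.5% of all regions. By place these were 1 of 7 at member ends, 6 of 10 inside members, 3 of 4 at the ends of other genes, 2 of 3 inside them and 8 of 12 in the flanks. The 20 regions had tallest heights between 0.855 and 16.2 per M with a median of 4.22, against a median of 3.30 for all regions found in 4 libraries. The 5 regions of 1 library alone reached only 0.288 to 0.728 per M, and all 5 belonged to the IFN-prefixed empty vector library. Over all regions 21.6% belonged to that library alone.

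**Figure D2:**
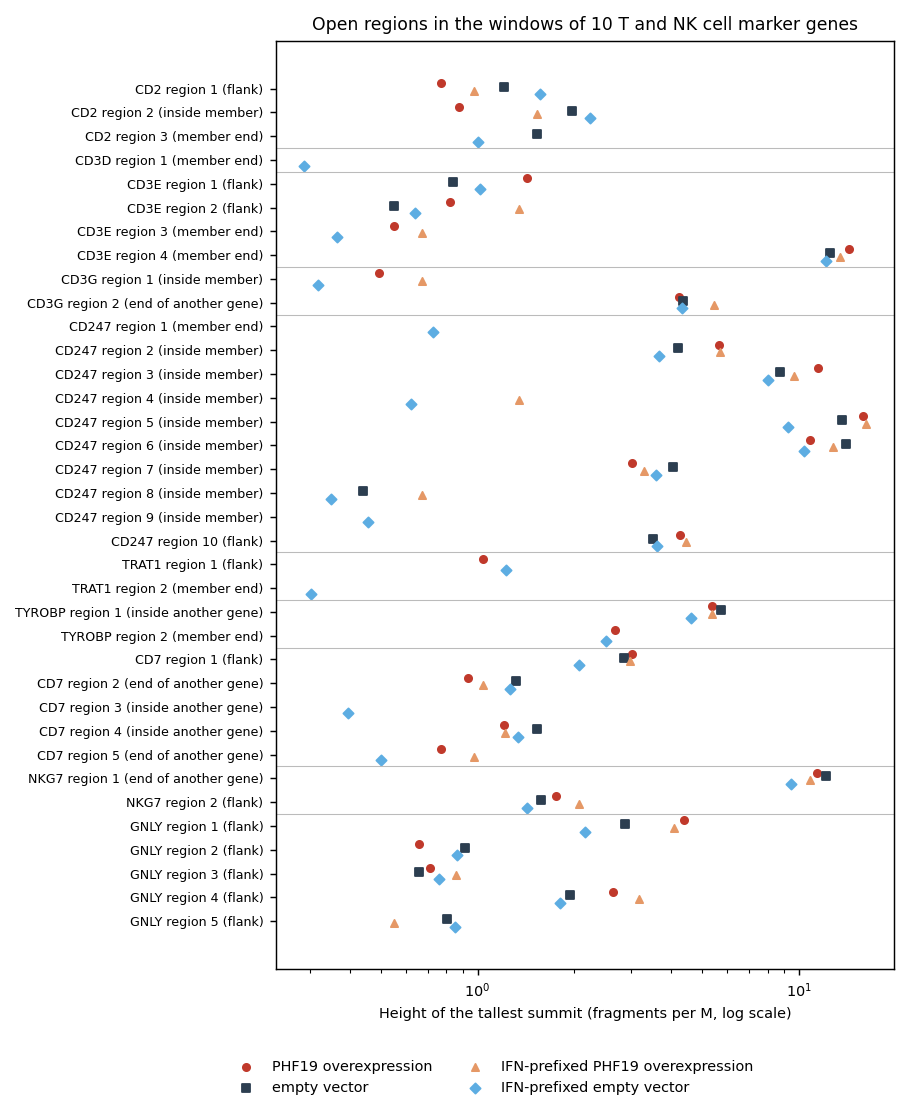
Height in fragments per M (horizontal log axis) of each of the 36 regions, grouped by gene, with 1 point per library and no point where no peak was called. The regions inside CD247 and at the end of CD3E stand highest, and the points seen alone at the left edge are those of the IFN-prefixed empty vector library.

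CD3E carried the tallest gene-end peak among the members. The region chr11:118315513-118317261, of 1749 bp, covered the end of CD3E with the higher coordinate. Its height was 14.4 per M with PHF19 overexpression and 12.5 per M with empty vector. In the IFN-prefixed pair it was 13.5 per M with PHF19 overexpression and 12.1 per M with empty vector. All 4 libraries were close to one another here, and the peak stood above 94.4 to 97.8% of the peaks of its own library. A low region at the other end of the gene, chr11:118304465-118305110, had 10 fragments (0.549 per M) with PHF19 overexpression, 11 fragments (0.672 per M) with IFN-prefixed PHF19 overexpression and 24 fragments (0.364 per M) with IFN-prefixed empty vector. No peak was called there with empty vector, where the height of the PHF19 overexpression library would amount to 15.0 fragments and the lowest called peak had 10. The 10th percentile of the peaks called with empty vector was 15 fragments.

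CD3D and CD3G, which lie next to CD3E on chromosome 11, had only low peaks. CD3D had a single region, chr11:118338679-118338956 at its 3′ end, with 19 fragments (0.288 per M) in the IFN-prefixed empty vector library alone. At the depth of the other libraries that height amounts to between 4.72 and 7.89 fragments, below the lowest peak called in each of them. CD3G had 1 region inside the gene, chr11:118353136-118353804, with 9 fragments (0.494 per M) with PHF19 overexpression, 11 (0.672 per M) with IFN-prefixed PHF19 overexpression and 21 (0.319 per M) with IFN-prefixed empty vector. It had no peak with empty vector, where the PHF19 overexpression height would amount to 13.5 fragments and the lowest called peak had 10. That is below the 10th percentile of the peaks called with empty vector, 15 fragments. The windows of CD3D and CD3G overlap and share these regions. They also share a region at the end of UBE4A, a ubiquitin ligase gene, with 4.22 per M with PHF19 overexpression, 4.35 with empty vector, 5.43 with IFN-prefixed PHF19 overexpression and 4.32 with IFN-prefixed empty vector.

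CD247 held the most regions of the members, 10 in its window, of which 9 lay at or inside the gene. The gene spans 87890 bp on the minus strand (chr1:167430640-167518529). Its tallest region, chr1:167454493-167456735, had its summit 63097 bp past the gene start and overlaps the end of the non-coding RNA gene LOC101928512. That region had 15.9 per M with PHF19 overexpression and 13.7 per M with empty vector, and in the IFN-prefixed pair 16.2 per M with PHF19 overexpression and 9.27 per M with empty vector. A region 26127 bp past the start had 10.9, 14.1, 12.8 and 10.4 per M in the order PHF19 overexpression, empty vector, IFN-prefixed PHF19 overexpression and IFN-prefixed empty vector. The region 76196 bp past the start had 11.5, 8.73, 9.65 and 8.01 per M in that order. These tall sites sit deep inside the gene, while the region nearest to the start, chr1:167517002-167517337 with its summit at 1323 bp, had 30 fragments (0.455 per M) in the IFN-prefixed empty vector library alone.

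The other regions with a peak in all libraries were lower. In the same order, the region 79015 bp past the start had 5.65, 4.20, 5.68 and 3.67 per M, the one 18627 bp past it had 3.02, 4.06, 3.30 and 3.60 per M, and the one in the upstream flank had 4.28, 3.51, 4.46 and 3.61 per M.

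The weak regions of CD247 were called in some libraries only. The region chr1:167447681-167448280 had 22 fragments (1.34 per M) with IFN-prefixed PHF19 overexpression and 41 (0.622 per M) with IFN-prefixed empty vector, and no peak in the unprefixed pair. The region chr1:167510368-167510836 had no peak with PHF19 overexpression and 12 fragments (0.438 per M) with empty vector, and in the IFN-prefixed pair 11 fragments (0.672 per M) with PHF19 overexpression and 23 (0.349 per M) with empty vector. The region chr1:167431314-167432012, near the 3′ end, had 48 fragments (0.728 per M) in the IFN-prefixed empty vector library alone. Its height there amounts to 11.9 fragments at the depth of the IFN-prefixed PHF19 overexpression library, where the lowest called peak had 8. The 10th percentile of the peaks called in that library was 12 fragments.

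**Figure D3:**
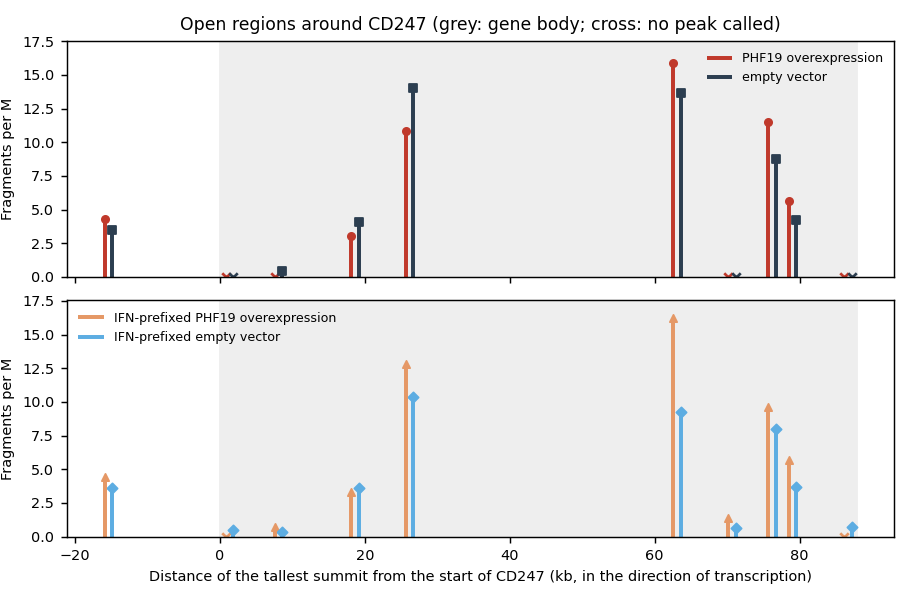
Height in fragments per M (vertical axis, from 0) of the regions around CD247 against the distance of the summit from the gene start (horizontal axis, kb). The upper panel shows the unprefixed pair and the lower panel the IFN-prefixed pair, grey marks the gene body and a cross marks a region with no peak, and the tall regions stand 26127 to 76196 bp past the start in all 4 libraries.

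CD2 had no peak at its start and a modest region inside the gene. That region, chr1:116764071-116765200, had its summit 10299 bp past the start of a gene of 14800 bp. It had 16 fragments (0.878 per M) with PHF19 overexpression and 54 (1.97 per M) with empty vector, and in the IFN-prefixed pair 25 (1.53 per M) with PHF19 overexpression and 148 (2.25 per M) with empty vector. Just past the 3′ end a region of 910 bp, chr1:116769299-116770208, had 42 fragments (1.53 per M) with empty vector and 66 (1.001 per M) with IFN-prefixed empty vector. It had no peak in either PHF19 overexpression library, although the empty vector heights amount to 28.0 fragments at the depth of the PHF19 overexpression library and 16.4 at that of the IFN-prefixed one. The lowest called peak had 8 fragments in both. Upstream of the gene a region of 2243 bp at the pseudogene NEFHP1 had 0.768 per M with PHF19 overexpression and 1.21 with empty vector, and in the IFN-prefixed pair 0.977 with PHF19 overexpression and 1.56 with empty vector.

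**Figure D4:**
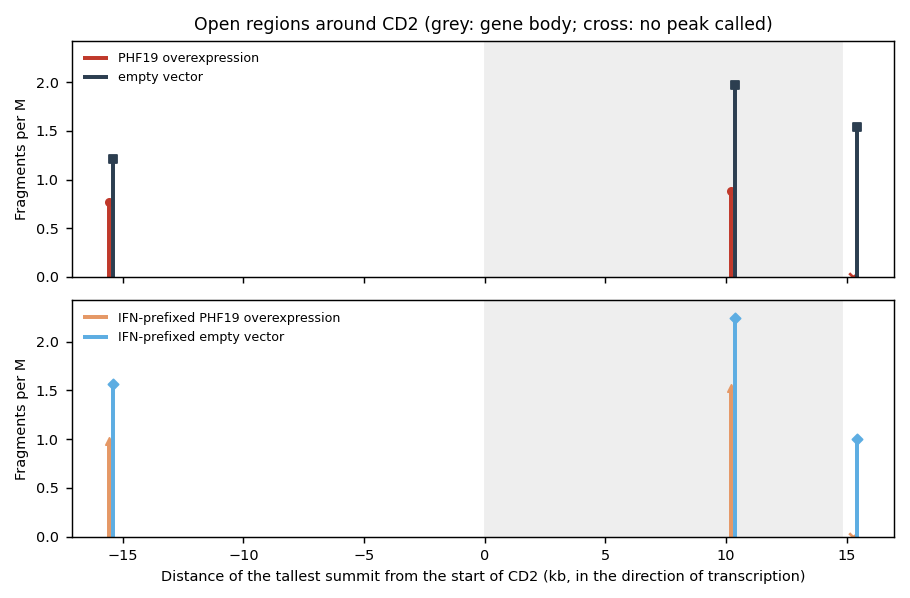
Height in fragments per M (vertical axis, from 0) of the 3 regions around CD2 against the distance of the summit from the gene start (horizontal axis, kb), with the unprefixed pair above and the IFN-prefixed pair below. Grey marks the gene body and a cross marks no peak, and in both panels the PHF19 overexpression bar is the shorter one, or is missing, at every region.

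TRAT1 and TYROBP each had a region that was called with PHF19 overexpression and with IFN-prefixed empty vector and in neither other library. For TYROBP this was chr19:35903524-35903975, 428 bp past the 3′ end of the gene and within 1 kb of an end of HCST, which encodes DAP10, another NK receptor adaptor. It had 49 fragments (2.69 per M) with PHF19 overexpression and none called with empty vector, and in the IFN-prefixed pair no peak with PHF19 overexpression and 166 fragments (2.52 per M) with empty vector. These heights amount to 73.6 fragments at the depth of the empty vector library and 41.2 at that of the IFN-prefixed PHF19 overexpression library, where the lowest called peaks had 10 and 8. The 2 libraries with the peak were almost equal in height. Regions with at least 2 per M in this pair of libraries and no peak in the other pair numbered 30, or 0.0407% of all regions. The opposite pattern, which requires no peak in the deepest library, was seen at 2 regions, or 0.00271%. The cut of 2 per M lies just below both heights of this region. Without a cut, the pattern held at 2.37% of all regions. For TRAT1 the region was chr3:108818335-108818886, 3900 bp before the gene, with 19 fragments (1.04 per M) with PHF19 overexpression and 81 (1.23 per M) with IFN-prefixed empty vector. These heights amount to 28.5 fragments at the depth of the empty vector library and 20.1 at that of the IFN-prefixed PHF19 overexpression library, again above the lowest called peaks. Of all regions, 2.37% were called in these 2 libraries and no other, and 0.0665% in the other pair alone. The low TRAT1 region at the start, chr3:108822329-108822669, had 20 fragments (0.303 per M) with IFN-prefixed empty vector and no peak elsewhere.

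CD7, NKG7 and GNLY had no peak inside the gene or within 1 kb of its ends in any library. The window of CD7 held 1 region in its flank, with 3.02, 2.85, 2.99 and 2.06 per M in the order PHF19 overexpression, empty vector, IFN-prefixed PHF19 overexpression and IFN-prefixed empty vector. It also held 4 regions at the ends of or inside SECTM1, which encodes a CD7 ligand, at 0.395 to 1.53 per M. The tallest region near NKG7 lay at the adjoining ends of CLDND2 and ETFB, with 11.4, 12.2, 10.9 and 9.45 per M in the same order, and a flank region there had 1.76, 1.57, 2.08 and 1.43 per M. The window of TYROBP held a region inside NFKBID, an inhibitor of NF-kappaB, with 5.38, 5.74, 5.37 and 4.63 per M. GNLY had 5 regions in its flanks. The tallest of these, chr2:85678767-85679786, lay 14572 bp before the gene and had 4.39 per M with PHF19 overexpression and 2.89 per M with empty vector, and in the IFN-prefixed pair 4.09 per M with PHF19 overexpression and 2.15 per M with empty vector. The other 4 ran from 0.550 to 3.18 per M.

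The first question of the design is what PHF19 overexpression does, and it can be put to 2 pairs that share no library. In the IFN-prefixed pair the empty vector library is also the deepest one and the one with another project folder. Differences of vector, depth and folder cannot be told apart in that pair. Ratios below are log2 ratios of heights, relative to the median ratio of every region shared by the pair, which was -0.11 in the unprefixed pair and 0.17 in the IFN-prefixed pair. Their 95% intervals are exact and cover counting error only. With PHF19 overexpression against empty vector, 30 member regions had a peak in at least 1 of the libraries. Of these, 5 had a peak with PHF19 overexpression alone, against 9.59% of all regions, and 3 had one with empty vector alone, against 19.2%. At a q of 1e-05 or lower, the 5 became 2. The 5 were the regions at the end of TYROBP, before TRAT1, at the lower end of CD3E, inside CD3G and at the outer end of SECTM1. The 3 were the region past the end of CD2, a weak one inside CD247 and a weak one in the flank of GNLY. In the IFN-prefixed pair, no member region of 36 had a peak with PHF19 overexpression alone, against 2.85% of all regions, and 10 had one with empty vector alone, against 37.1%. With both lists cut to equal length these counts were 7 and 5. At gene ends, TYROBP was the 1 member of 10 with a peak with PHF19 overexpression alone, against 1.13% of all genes, and CD2 the 1 with empty vector alone, against 1.9%. In the IFN-prefixed pair no member had one with PHF19 overexpression alone, against 0.371%, and 5 had one with empty vector alone, against 4.21%. Those 5 were CD2, CD3D, CD247, TRAT1 and TYROBP. At the depth of the IFN-prefixed PHF19 overexpression library, CD3D, TRAT1 and CD247 amount to 4.72, 4.97 and 11.9 fragments. The 10th percentile of the peaks called there was 12. The shares are over all genes, including those with a peak in both libraries. Only 5 of the 10 regions with empty vector alone would reach, at the depth of the shallower library, the 10th percentile of the pileups called there.

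At regions with a peak in both libraries, differences past 1.5-fold were fewer in the unprefixed pair than in the IFN-prefixed pair. With PHF19 overexpression against empty vector, 3 of 22 member regions were at least 1.5-fold higher and 1 was at least 1.5-fold lower, against 12.8% and 9.16% of all shared regions. The median ratio was 0.21, with 15 regions above 0 and 7 below, and the extremes were -1.06 and 0.87. In the IFN-prefixed pair, 9 of 26 were higher and 3 lower by that measure, against 11.8% and 11%. Of the 9, 4 had an interval that includes 0, namely weak regions of CD247, CD3E, CD3G and SECTM1. Those of CD247, CD3E and CD3G had 0.349, 0.364 and 0.319 per M with IFN-prefixed empty vector. The lowest peak called in the shallower IFN-prefixed PHF19 overexpression library had 8 fragments, a greater height than these. Such regions count as shared only where that library is higher, so their direction was set in advance. The 9 became 5 with a trend in height removed, and 4 with the median of all shared regions within 2.5 Mb removed. The median was 0.15, with 19 regions above 0 and 7 below, and the extremes were -0.85 and 0.94. The 9 higher regions included 2 of CD3E, 1 of CD3G, 3 of CD247, 2 of GNLY and 1 at SECTM1. With that local median removed, the 2 medians became -0.016 and 0.0084, and in the unprefixed pair 1 region was higher and 4 were lower. With the trend in height removed, 4 were higher and 3 lower there.

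The CD2 region inside the gene was the 1 member region of 20 that was at least 1.5-fold lower in both pairs, a pattern of 5.37% of all regions. Its ratio was -1.06 (-1.96 to -0.23) with PHF19 overexpression against empty vector and -0.72 (-1.40 to -0.11) in the IFN-prefixed pair. Neither interval reached 0. With the local median removed the ratios were -0.781 and -0.581, and the second is then just inside 1.5-fold, which is 0.585 on this scale. With the trend in height removed they were -1.22 and -0.70. The upstream CD2 region had -0.54 (-1.56 to 0.40) and -0.85 (-1.71 to -0.08), so its interval includes 0 in the unprefixed pair. The region past the 3′ end had a peak in both empty vector libraries and in neither PHF19 overexpression library. That pattern held at 8.64% of all regions, and its opposite, at which no member region lay, at 0.583%. In each pair the empty vector library was the deeper one, so these shares were not measured at equal depth.

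The regions at least 1.5-fold higher in both pairs were 1 beside GNLY and 1 beside CD3E, 2 of 20, a pattern of 4.17% of all regions. The GNLY region had 0.72 (0.25 to 1.18) with PHF19 overexpression against empty vector and 0.76 (0.32 to 1.19) in the IFN-prefixed pair. Its ratios with the local median removed were 0.19 and 0.22, so the shared regions around it were higher too. A second GNLY flank region had 0.55 (-0.04 to 1.15) and 0.65 (0.15 to 1.13), and 0.03 and 0.11 with the local median removed. The CD3E flank region, chr11:118295785-118296447, had 15 fragments (0.823 per M) with PHF19 overexpression and 15 (0.548 per M) with empty vector, and in the IFN-prefixed pair 22 (1.34 per M) with PHF19 overexpression and 42 (0.637 per M) with empty vector. Its ratios were 0.70 (-0.44 to 1.83) and 0.91 (0.09 to 1.69), and the first interval includes 0. They were 0.435 and 0.635 with the local median removed and 0.415 and 0.788 with the trend in height removed, so the region was then past 1.5-fold in the IFN-prefixed pair alone. With the local median removed no member region was at least 1.5-fold higher in both pairs.

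The CD247 regions did not all point the same way, and in the IFN-prefixed pair all but 1 of the shared ones were above 0. Its tallest region had 0.33 (0.10 to 0.56) with PHF19 overexpression against empty vector and 0.64 (0.43 to 0.85) in the IFN-prefixed pair, but -0.08 and 0.34 with the local median removed. In the unprefixed and the IFN-prefixed pair, the region 76196 bp past the start had 0.51 and 0.10, and the one 79015 bp past it had 0.54 and 0.46. The regions nearer the start, at 26127 and 18627 bp, had -0.26 and -0.32 in the unprefixed pair and 0.14 and -0.29 in the IFN-prefixed pair. The upstream flank region had 0.40 and 0.14, and -0.01 and -0.17 with the local median removed. The weak regions chr1:167447681-167448280 and chr1:167510368-167510836, shared in the IFN-prefixed pair alone, had 0.94 and 0.78 there. The direction of the second was set in advance, as given above. The gene-end region of CD3E had 0.31 (0.08 to 0.55) and -0.01 (-0.23 to 0.20), so its interval lies above 0 in the unprefixed pair alone; the difference between the pairs was not tested. With the local median removed these ratios were 0.05 and -0.29. In the unprefixed and the IFN-prefixed pair, the UBE4A end had 0.07 and 0.16, the CLDND2 and ETFB end 0.02 and 0.03, and the NFKBID region 0.02 and 0.05.

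**Figure D5:**
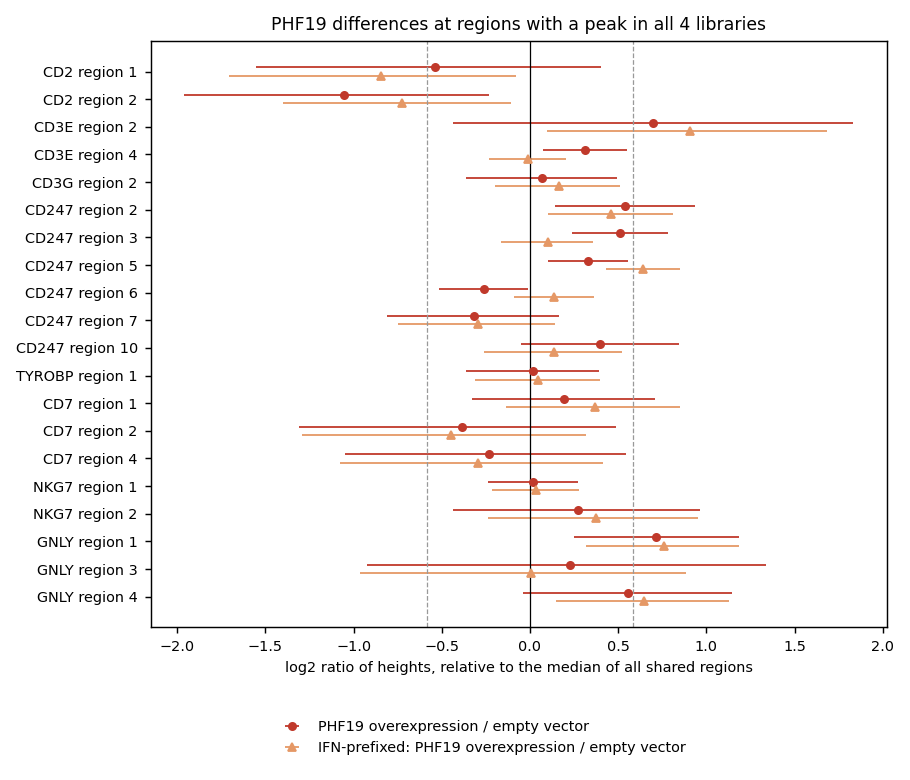
log2 ratio of heights, PHF19 overexpression over empty vector, relative to the median of all shared regions (horizontal axis), for the 20 regions with a peak in all 4 libraries, with 95% counting intervals. Dashed lines mark 1.5-fold, and only the CD2 region inside the gene lies below the lower line in both pairs, while a GNLY and a CD3E flank region lie above the upper line in both.

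The second pair of comparisons sets the IFN-prefixed libraries against the unprefixed ones with the same vector. These use the same 4 libraries as the PHF19 comparisons, so their values are not independent of those above. With empty vector, differences of prefix, depth and project folder cannot be told apart. With empty vector, 11 of 36 member regions had a peak with the IFN prefix alone, against 31.1% of all regions, and none had one without it alone, against 1.41%. With lists of equal length the counts were 2 and 1. Of the 11, only 4 would reach, at the depth of the unprefixed library, the 10th percentile of the pileups called there. At gene ends, 4 of the 10 members had a peak with the prefix alone, against 3.45% of all genes, and none without it alone, against 0.285%. They were TYROBP, CD247, TRAT1 and CD3D, and the last 3 were the low regions given above. With PHF19 overexpression, 3 of 30 had a peak with the prefix alone, against 13.9%, and 4 had one without it alone, against 10.7%. The 3 became 1 with lists of equal length. At gene ends, no member had a peak with the prefix alone, against 1.14%, and TYROBP had one without it, against 1.05%. The 3 regions were 2 weak ones inside CD247 and 1 in the flank of GNLY. The 4 regions were the TYROBP end region, the TRAT1 flank region, a CD3E flank region and a GNLY flank region.

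Shared member regions were close in height with and without the prefix. Ratios are again relative to the median of every shared region, -0.09 with empty vector and 0.11 with PHF19 overexpression. With empty vector, 0 of 25 were at least 1.5-fold higher and 0 lower, against 6.22% and 1.81% of all shared regions, and the ratios ran from -0.53 to 0.46 with a median of -0.04. With PHF19 overexpression, 2 of 23 were higher and 0 lower, against 6.66% and 3.63%, and the ratios ran from -0.37 to 0.68 with a median of 0.04. The 2 were the CD2 region inside the gene, at 0.68 (-0.28 to 1.69), and the CD3E flank region, at 0.59 (-0.42 to 1.64), and both intervals include 0. The 2 became 1 with the trend in height removed. With that trend removed, 1 region was lower with empty vector, the one past the end of CD2. No member region was at least 1.5-fold higher in both comparisons, or lower in both, against 0.793% and 0.0532% of all regions. The tallest CD247 region had -0.47 (-0.66 to -0.28) with empty vector and -0.08 (-0.33 to 0.16) with PHF19 overexpression. Its ratio with empty vector was -0.25 with the trend in height removed and -0.577 with the local median removed.

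Other genes of the same cells gave a context for the members. Of 16 genes of T cell receptor signalling and coreceptors, 6, 7, 6 and 7 had a peak at a gene end, in the order PHF19 overexpression, empty vector, IFN-prefixed PHF19 overexpression and IFN-prefixed empty vector, against the 61.1%, 61.8%, 61.2% and 65% of all genes given above. By the highest value over the 4 libraries the tallest were those of CD28, a costimulatory receptor that myeloma cells can also express, and CD8A, a coreceptor chain. CD28 had 2.85 per M with PHF19 overexpression and 9.06 per M with empty vector, and in the IFN-prefixed pair 2.63 per M with PHF19 overexpression and 7.57 per M with empty vector. The CD28 ratios were -1.56 (-2.02 to -1.12) and -1.70 (-2.18 to -1.24). LCK, the kinase that phosphorylates the CD3 and zeta chains, had 1.94 per M with empty vector and 1.71 per M with IFN-prefixed empty vector and no peak in either PHF19 overexpression library. Gene-end peaks with empty vector alone were called at 1.9% of genes in the unprefixed pair and at 4.21% in the IFN-prefixed pair. CD8A had 7.24 per M with PHF19 overexpression and 6.91 per M with empty vector, and in the IFN-prefixed pair 6.66 per M with PHF19 overexpression and 5.77 per M with empty vector. Of the gene-end regions of this list with a peak in both libraries, 2 of 6 were at least 1.5-fold higher and 2 lower in the unprefixed pair, against 4.33% and 2.26% of all. In the IFN-prefixed pair 1 of 6 was higher and 1 lower, against 4.81% and 2.4%. That higher region had 0.69, and -0.02 with the local median removed. In the unprefixed pair it had 0.91, and 0.21 with the local median removed. The medians were -0.11 in the unprefixed pair and 0.05 in the IFN-prefixed pair.

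The lineage transcription factors had the highest share of gene-end peaks among the 3 further lists of T and NK cell genes. Of 8, 7 had one in each library, against 61.1%, 61.8%, 61.2% and 65% of all genes in the same order of libraries. RUNX3, EOMES and TBX21, which direct cytotoxic T and NK cell programmes, had the tallest. RUNX3 had 7.52 per M with PHF19 overexpression and 10.4 per M with empty vector, and in the IFN-prefixed pair 8.37 per M with PHF19 overexpression and 9.73 per M with empty vector. EOMES had 7.30 per M with PHF19 overexpression and 7.60 per M with empty vector, and in the IFN-prefixed pair 7.33 per M with PHF19 overexpression and 6.18 per M with empty vector. TBX21 had 6.75 per M with PHF19 overexpression and 7.60 per M with empty vector, and in the IFN-prefixed pair 6.66 per M with PHF19 overexpression and 6.63 per M with empty vector. In each pair 1 of 7 regions was at least 1.5-fold higher, against 4.33% of all gene-end regions in the unprefixed pair and 4.81% in the IFN-prefixed pair. None was lower, against 2.26% and 2.4%. The medians of the list were -0.06 and -0.02, against -0.06 and 0.01 for all gene-end regions.

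Of 19 cytotoxic and NK cell genes, 7, 7, 6 and 10 had a gene-end peak in the same order of libraries, against the same shares of all genes. CCL5, a chemokine released by cytotoxic cells, had the tallest, with 8.504 per M with PHF19 overexpression and 11.2 per M with empty vector, and in the IFN-prefixed pair 9.04 per M with PHF19 overexpression and 10.3 per M with empty vector. FCGR3A, the Fc receptor CD16 of NK cells, had 4.604 per M with empty vector and 5.17 per M with IFN-prefixed empty vector. Its empty vector peaks were overlapped by peaks of the PHF19 overexpression libraries that ended outside the 1 kb. HCST shared the TYROBP region described above. KLRK1, which encodes the NK receptor NKG2D, and CST7, an inhibitor of granule proteases, had 0.303 and 0.379 per M in the IFN-prefixed empty vector library alone. In the unprefixed pair 2 of 6 regions were at least 1.5-fold higher and 1 lower, against 4.33% and 2.26% of all gene-end regions. None was higher and 1 was lower in the IFN-prefixed pair, against 4.81% and 2.4%. The medians of these 6 regions were 0.25 in the unprefixed pair and 0.39 in the IFN-prefixed pair, against -0.06 and 0.01 for all gene-end regions.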

How the data were processed

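ATAC-seq peak lists of AMO1 cells were analysed, 1 list per library and 1 library per group, with groups taken from the titles. Per the labels' protocols, cells were treated with DNase I, lysed and tagmented with Tn5. Per the file headers, the authors ran MACS2 2.1.2 on each library alone, at a q of 0.01, with no control, on paired fragments and with duplicates kept. Further names in the submitters' processing notes are bcl2fastq 2.17, Trimmomatic 0.38, DiffBind and hg38. The aligner, read filters and Tn5 offset were not given in the sources used here. Pileup, as deposited by the authors, is an unscaled signal, the coverage by fragments at the summit, per the file headers. The authors' lists also hold a -log10 p-value, a -log10 q-value and a fold enrichment, which is a ratio to local background; of these only the q-value was used, to filter and rank peaks within a list. With duplicates kept, fragments are not all independent molecules, so intervals and floors cover counting error only.

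Lines of the same interval were joined into 1 peak with the tallest pileup, chromosomes 1 to 22 and X were used, and peaks of the 4 lists that overlapped by at least 1 bp were merged into regions. A region was one-sided when the other library had no overlapping peak. Genes, windows of 20 kb and promoter sequences came from RefSeq tables (GRCh38.p14, 19970 protein-coding genes), which give the strand of 7 members. Ratios of pileups per M header fragments carry exact 95% intervals (Clopper-Pearson on the share of fragments). With 1 library per group no test was made, and counts and ratios are set beside the same values over all regions or genes. Depth was 16.4 to 65.9 M fragments.

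The members, gene lists and rules were chosen with earlier results of these data known. All 10 genes are described. Regions at or inside a member that were called in some libraries only, or that passed 1.5-fold the same way in both pairs, are given in full, and other regions by range or count. From each further list, the 2 genes with the tallest gene-end peaks and up to 2 for each direction with a gene-end peak in 1 library of a pair alone are named. Alternatives were a stricter q, a larger overlap, lists of equal length, a height minimum, other centring and other windows. Gene-end peaks of the further lists are ranked by their highest value over the 4 libraries. The merging and interval steps were tested on simulated data. Python 3.11.15, pandas 2.3.3, numpy 2.4.6, scipy 1.17.1 and matplotlib 3.10.9 were used.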

Additional observations from a re-analysis of the deposited data

Results flagged for a closer look

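Some regions differed in direction between the pairs, and in no case was the difference between the pairs tested. The region 428 bp past the 3′ end of TYROBP had 2.69 per M with PHF19 overexpression and no peak with empty vector, and in the IFN-prefixed pair no peak with PHF19 overexpression and 2.52 per M with empty vector. Read by prefix, the same region was called with the IFN prefix alone with empty vector and without it alone with PHF19 overexpression. The region 3900 bp before TRAT1 followed the same order, with 1.04 per M with PHF19 overexpression and 1.23 per M with IFN-prefixed empty vector and no other peak.

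A flank region of CD3E had 1.43 per M with PHF19 overexpression and 0.840 per M with empty vector, and in the IFN-prefixed pair no peak with PHF19 overexpression and 1.02 per M with empty vector. A weak region inside CD247 had no peak with PHF19 overexpression and 0.438 per M with empty vector, and in the IFN-prefixed pair 0.672 per M with PHF19 overexpression and 0.349 per M with empty vector. At the depth of the PHF19 overexpression library the empty vector height of that region amounts to 7.99 fragments, where the lowest called peak had 8.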

How the results depend on the processing

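Of 72 alternatives, 50 left the result within its limits, 19 moved a count and 3 turned the sign of a median. At a q of 1e-05 or lower, regions with a peak with PHF19 overexpression alone numbered 2 in place of 5, and those with IFN-prefixed empty vector alone against empty vector 6 in place of 11. With lists cut to equal length, regions with a peak with IFN-prefixed PHF19 overexpression alone numbered 7 in place of 0, and those with IFN-prefixed empty vector alone 5 in place of 10. Against empty vector, equal lists gave 2 regions with IFN-prefixed empty vector alone in place of 11, and 1 with empty vector alone in place of 0. Against PHF19 overexpression they gave 1 region with IFN-prefixed PHF19 overexpression alone in place of 3. Counting only regions tall enough for the other library gave 5 for IFN-prefixed empty vector alone against IFN-prefixed PHF19 overexpression and 4 for it against empty vector. These settings hold fewer peaks by construction.

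Counts of shared regions past 1.5-fold moved with other centring, which was tried on them after seeing the data. With the local median removed, the 3 regions higher with PHF19 overexpression became 1 and the 1 lower became 4. In the IFN-prefixed pair the 9 higher became 4, and the 2 higher in both pairs became 0. The 1 lower in both pairs stayed at 1 but was another region, inside CD247 and not CD2. With the trend in height removed, the 1 region lower with PHF19 overexpression became 3, the 9 higher in the IFN-prefixed pair became 5, the 2 higher in both pairs became 1 and the 1 lower in both became 2. With the same setting, the 2 higher with the IFN prefix and PHF19 overexpression became 1, and the 0 lower with the prefix and empty vector became 1.

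The median ratio of PHF19 overexpression over empty vector, 0.21, became -0.016 with the local median within 2.5 Mb removed, and that of IFN-prefixed over unprefixed empty vector, -0.04, became 0.057. That alternative was chosen after seeing the data. The median of IFN-prefixed over unprefixed PHF19 overexpression, 0.04, became -0.00024 with a trend in height removed. The cause was not tested. No paired analysis was possible because the labels give the groups no replicate numbers to share. A fit of vector and prefix over the 4 libraries, with the 2 pairs as blocks, was not run. With 1 library per group none could be left out. Depth limits the weak regions: the lowest called peaks had 8, 10, 8 and 16 fragments, so a region called in the deepest library alone was not detectable in the others at the lowest heights.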
